A study of Mus musculus with 11 samples.

Results

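ERV1 repeats are the remains of gammaretrovirus-like endogenous retroviruses in the mouse genome. Their expression was measured in embryonic stem cells of the J1 line under the labels TKO_FL and TKO. Members were all rows of the deposited repeat table whose repeat family is ERV1. They are 11863 of 442429 repeat features, fall under 146 repeat names and join 61596 genomic copies. Each feature joins same-numbered copies of a name over the chromosomes, up to 21 copies in a feature.

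TKO_FL and TKO had 1 library each at day 0. TKO is spelled DNMT TKO elsewhere in the labels, DNMTs being the enzymes that methylate cytosine, and TKO_FL is a TKO genotype to which FL was added. The sources used here do not give what FL stands for, which alleles were removed or how many clones were grown. Both cultures grew on mitomycin-treated mouse embryonic fibroblast feeders in serum with LIF, and RNA was enriched with oligo(dT) beads. With 1 library per genotype, each difference below is a description of these libraries, with neither replicates nor a p-value behind it. Intervals in brackets are exact 95% binomial intervals of a ratio of fragments and cover counting error only, not variation between cultures or libraries. They make no allowance for PCR duplicates or for the rounding of shared fragments, so counting error may be larger than they show.

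A complete provirus carries gag, pol and env genes between a pair of long terminal repeats (LTRs), which hold its promoter and its polyadenylation signal. Most mouse copies have lost the internal genes by recombination between the LTRs and remain as solitary LTRs. In mouse embryonic stem cells, proviruses are silenced mainly by KRAB zinc finger proteins that recruit TRIM28 and the histone methyltransferase SETDB1, and by DNA methylation. The ERV1 names include MuLV, the murine leukaemia viruses with RLTR4 as their LTR, and VL30, a virus-like element of 30S RNA with RLTR6 LTRs and no complete genes. GLN elements are named after the glutamine tRNA that primes their reverse transcription. MuRRS and MURVY are retrovirus-related elements, MURVY being amplified on the Y chromosome, and LTRIS names are LTRs.

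The deposited repeat annotation gives positions but no bases, so sequences are shown where a RefSeq start site of GRCm38.p6 (mm10) lies inside a copy of an ERV1 name discussed here. These windows run from 250 bases before the start to 50 after it, and capitals mark CpG, the dinucleotide that DNMTs methylate. They were chosen as examples of a GLN internal part, an RLTR1B internal part, an RLTR1 LTR, a VL30 LTR and an LTRIS LTR whose feature had at least 10 fragments over both libraries.

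Gm42270 in MMERGLN-int, chr4:39386735-39387034, plus strand: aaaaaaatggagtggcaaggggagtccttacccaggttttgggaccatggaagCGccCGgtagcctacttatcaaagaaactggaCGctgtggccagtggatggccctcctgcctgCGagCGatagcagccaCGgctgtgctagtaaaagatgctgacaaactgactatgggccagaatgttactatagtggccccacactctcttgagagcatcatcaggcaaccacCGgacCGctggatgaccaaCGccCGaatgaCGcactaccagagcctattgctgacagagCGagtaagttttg
Gm20362 in RLTR1B-int, chr6:79031792-79032091, plus strand: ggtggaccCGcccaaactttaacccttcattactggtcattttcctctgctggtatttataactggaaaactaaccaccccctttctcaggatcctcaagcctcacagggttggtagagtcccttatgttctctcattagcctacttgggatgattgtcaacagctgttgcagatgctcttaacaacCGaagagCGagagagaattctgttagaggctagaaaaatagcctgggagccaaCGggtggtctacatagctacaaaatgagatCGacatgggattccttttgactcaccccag
Mgat4c in RLTR1A2_MM, chr10:102374187-102374486, plus strand: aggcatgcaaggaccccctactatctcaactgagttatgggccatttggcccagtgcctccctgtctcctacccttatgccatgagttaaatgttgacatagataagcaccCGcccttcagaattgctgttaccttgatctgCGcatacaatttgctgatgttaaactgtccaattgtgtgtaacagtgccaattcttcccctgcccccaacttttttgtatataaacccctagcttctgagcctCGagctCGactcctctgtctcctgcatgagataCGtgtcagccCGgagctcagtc
Gm40826 in RLTR6_Mm, chr13:17685729-17686028, minus strand: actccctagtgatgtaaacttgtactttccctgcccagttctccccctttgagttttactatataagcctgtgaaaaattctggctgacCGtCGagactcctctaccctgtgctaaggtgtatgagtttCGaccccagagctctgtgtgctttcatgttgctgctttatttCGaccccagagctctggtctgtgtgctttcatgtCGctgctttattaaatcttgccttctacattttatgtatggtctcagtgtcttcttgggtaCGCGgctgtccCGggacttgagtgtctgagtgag
Gm41131 in LTRIS2, chr14:34364877-34365176, plus strand: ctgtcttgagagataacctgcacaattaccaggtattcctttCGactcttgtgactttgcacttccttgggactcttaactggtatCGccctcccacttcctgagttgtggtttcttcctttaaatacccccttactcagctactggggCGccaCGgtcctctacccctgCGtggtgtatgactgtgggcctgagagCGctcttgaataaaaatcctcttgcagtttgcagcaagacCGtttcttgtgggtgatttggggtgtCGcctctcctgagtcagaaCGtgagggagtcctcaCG

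The MMERGLN-int window holds 12 CpG and the RLTR1B-int window 5. The MMERGLN-int window shown has the most CpG of that name, whose windows range down to 2. The RLTR1A2_MM, RLTR6_Mm and LTRIS2 windows hold 6, 8 and 10. Over all RefSeq windows the median was 7 CpG, and over the 150 windows whose start site lies in an ERV1 copy it was 4. These 150 windows belong to 141 of 27025 genes, and 90 of these genes run on the strand of the copy. The motif TATAAA, searched on both strands, stands in 21.3% of the ERV1 windows and in 13.6% of all windows. Mgat4c, a gene of the N-acetylglucosaminyltransferase family, has it at position -29 from its start, and the RLTR1B-int window has it on the opposite strand. Of the 141 genes, 32 are in the deposited gene table and 7 of those had at least 1 TPM, a level divided by length and scaled to the library, in either library. Mgat4c had 0.697 TPM in TKO_FL and 0.691 TPM in TKO, so the level was close to 0 in both. The feature that joins the RLTR1A2_MM copy at Mgat4c with 15 others had 12 fragments in TKO_FL and 15 in TKO. The feature of the RLTR1B-int copy at Gm20362 joins 15 copies and had 51.2 fragments in TKO_FL and 162 in TKO. Which copies those fragments came from cannot be told from the deposited values.

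ERV1 features together had 14918 fragments in TKO_FL and 19422 in TKO. That is 1.26% of repeat fragments in TKO_FL (interval 1.24 to 1.28) and 1.46% in TKO (interval 1.44 to 1.48). Per 1000000 gene fragments (FPM), of which there were 10084490 in TKO_FL and 10860312 in TKO, the family stood at 1479 FPM in TKO_FL and 1788 FPM in TKO. The log2 ratio of FPM was -0.27 (-0.30 to -0.24), lower in TKO_FL, and the ratios of fragments given below are scaled in the same way. In TPM, which divides by length, the sum was 4189 in TKO_FL and 4730 in TKO, a log2 ratio of -0.18. The log2 ratio of FPM was -0.40 for ERVK, the LTR family that holds the IAP elements, -0.08 for ERVL, -0.07 for ERVL-MaLR and -0.06 for all repeat features. IAPEz-int, the internal part of IAP elements and a known target of DNA methylation, had 317 TPM in TKO_FL and 1891 TPM in TKO.

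Other genes moved between the same libraries. Dnmt1, the maintenance methyltransferase, had 1177 TPM in TKO_FL and 54.9 TPM in TKO. Of all 13642 genes tested, 3.06% passed 2-fold downward in TKO_FL and 3.58% upward. All 12 primitive endoderm markers were at least 2-fold lower in TKO_FL, with summed levels of 167 TPM in TKO_FL and 808 TPM in TKO. Of 15 fibroblast feeder markers tested, 6 were at least 2-fold lower and none higher, with sums over all 16 of 1037 TPM in TKO_FL and 1659 TPM in TKO. Sparc, with 202 TPM in TKO_FL and 529 TPM in TKO, held a large part of that difference. Col3a1, Dcn and Pdgfrb had log2 folds of -0.18, -0.40 and -0.21. Fn1 was higher, with 386 TPM in TKO_FL and 278 TPM in TKO, and the other 14 tested were below 0. No marker of these lists was at 0 in either library. The 10 embryonic stem cell markers stayed within 2-fold and summed to 12096 TPM in TKO_FL and 9783 TPM in TKO. The part of these other cell types in the ERV1 values below was not tested, and in bulk RNA fewer cells of a type and less RNA per cell cannot be told apart.

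Many ERV1 features hold a copy that touches an annotated exon. These 454 features, taken whole with all their copies, held 56.2% of ERV1 TPM in TKO_FL and 53.3% in TKO, and 41.0% of ERV1 fragments in TKO_FL and 38.6% in TKO. How much of that lay in the exons themselves cannot be told, since a feature joins up to 21 copies and the library does not mark strand. The log2 ratio was -0.19 (-0.24 to -0.14) for the exon-touching features and -0.33 (-0.37 to -0.29) for the 11409 that touch none. Exons here and below are those of the deposited gene annotation, which holds 32 of the 141 RefSeq genes that start in an ERV1 copy. Features said to touch no exon can thus hold exons of other RefSeq genes, as MMERGLN-int_dup19 does at the start of Gm42048. The most abundant single feature, MER57E2_dup3, touches Fxr1, which encodes an RNA-binding protein, and had 487 TPM in TKO_FL and 424 TPM in TKO. Fxr1 itself had 379 TPM in TKO_FL and 320 TPM in TKO. TPM of repeat features and of genes are scaled to separate totals, so a feature and its gene cannot be compared in level. MLTR73_dup56, which touches the Polycomb-related gene Asxl1, had 286 TPM in TKO_FL and 269 TPM in TKO. Asxl1 had 114 TPM in TKO_FL and 84.0 TPM in TKO. LTR78B_dup24, at Wdtc1, had 172 TPM in TKO_FL and 178 TPM in TKO, and Wdtc1 had 119 TPM in both. MER50B_dup1 touches 2 genes, Pea15a and Tonsl, and had 156 TPM in TKO_FL and 191 TPM in TKO. Pea15a had 12.3 TPM in TKO_FL and 26.4 TPM in TKO, a log2 fold of -1.04, while Tonsl, a replication repair gene, had 26.7 TPM in TKO_FL and 25.5 TPM in TKO. RLTR41C_dup7, at the COP9 signalosome gene Gps1, had 139 TPM in TKO_FL and 165 TPM in TKO, and Gps1 had 108 TPM in TKO_FL and 139 TPM in TKO. A pair of MER34B-int features touch Ywhaz, a gene of the 14-3-3 family, and had 121 and 100 TPM in TKO_FL, against 131 and 122 TPM in TKO. Ywhaz had 285 TPM in TKO_FL and 316 TPM in TKO. These 7 features are the most abundant that touch an exon, chosen after their values were seen, and each stayed within 2-fold.

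**Figure D1:**
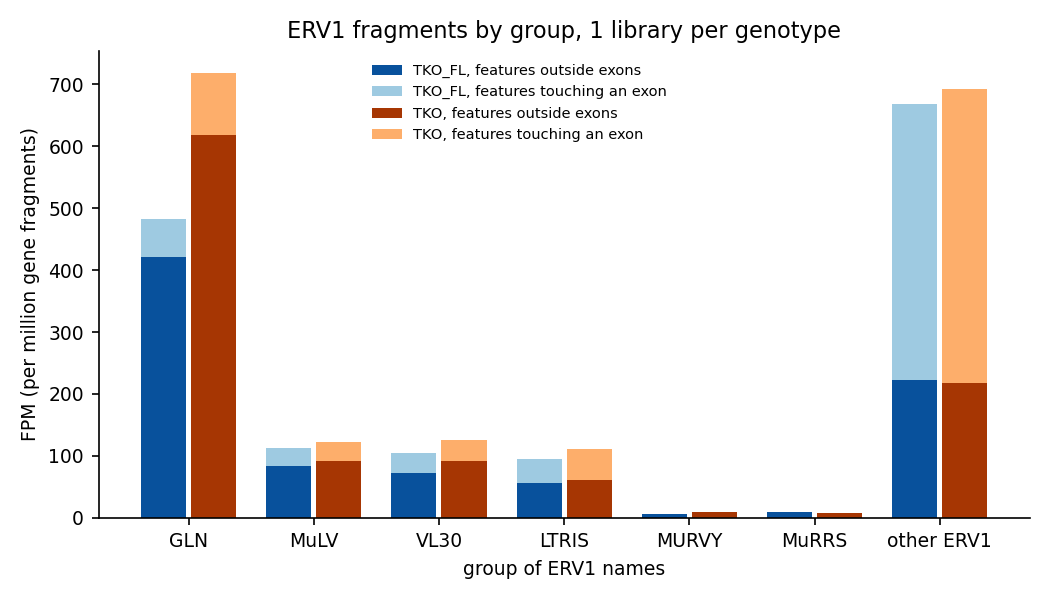
FPM (y axis) by group of ERV1 names (x axis), with TKO_FL at the left and TKO at the right of each pair, 1 library each. Dark parts are features outside annotated exons and light parts are features that touch one. GLN with the RLTR1 names stands at 483 in TKO_FL and 718 in TKO, while the other ERV1 names, mostly exon-touching, stand at 668 in TKO_FL and 693 in TKO.

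Among the groups set by name, GLN with the RLTR1 names held the largest fall in fragments. Its 833 features had 4867 fragments in TKO_FL and 7801 in TKO, or 483 FPM in TKO_FL and 718 FPM in TKO. The log2 ratio was -0.57 (-0.63 to -0.52), and it was -0.55 (-0.61 to -0.50) over features that touch no exon. MMERGLN-int, the internal part of GLN, had 1651 fragments in TKO_FL and 2898 in TKO, a log2 ratio of -0.70 (-0.79 to -0.62). In TPM it had 56.1 in TKO_FL and 92.7 in TKO. Its LTR, MMERGLN_LTR, had 86.9 fragments in TKO_FL and 134 in TKO, a log2 ratio of -0.52 (-0.92 to -0.12).

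RLTR1B-int was the most read name of the family, with 2822 fragments in TKO_FL and 4376 in TKO. Its log2 ratio was -0.53 (-0.59 to -0.46), and its summed level was 574 TPM in TKO_FL and 908 TPM in TKO. Its features with whole fragments only, with 10 fragments in TKO_FL and 38 in TKO, gave a log2 fold of -2.90 on TPM plus 1, against -0.66 over all. By the deposited positions, RLTR1B-int is a mixed name. Of the 254 copies that lie within 10 bases of an ERV1 LTR, 108 lie beside RLTR1B, 81 beside LTRIS2 and 29 beside MMERGLN_LTR. MMERGLN-int lies beside its own LTR in 58 of 132 such copies. The names with GLN alone had a log2 ratio of -0.70 (-0.78 to -0.61) and the RLTR1 names alone one of -0.50 (-0.57 to -0.44).

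Among the RLTR1 LTRs, RLTR1B had 100.03 fragments in TKO_FL and 144 in TKO, a log2 ratio of -0.42 (-0.80 to -0.04). On the TPM scale the same name was slightly higher in TKO_FL, with 18.6 TPM against 17.2 TPM in TKO, so its direction depends on the scale. RLTR1A2_MM had 121 fragments in TKO_FL and 161 in TKO, and its interval of -0.66 to 0.04 holds 0. RLTR1C had 42.8 fragments in TKO_FL and 31.7 in TKO, RLTR1D had 19 and 27, and RLTR1D2_MM had 22.8 and 25.9, each with an interval that holds 0. The direction of these 3 names changes between fragments and TPM, and that of RLTR1D on TPM plus 1 also changes without its most abundant feature (0.62 with it, -1.01 without).

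**Figure D2:**
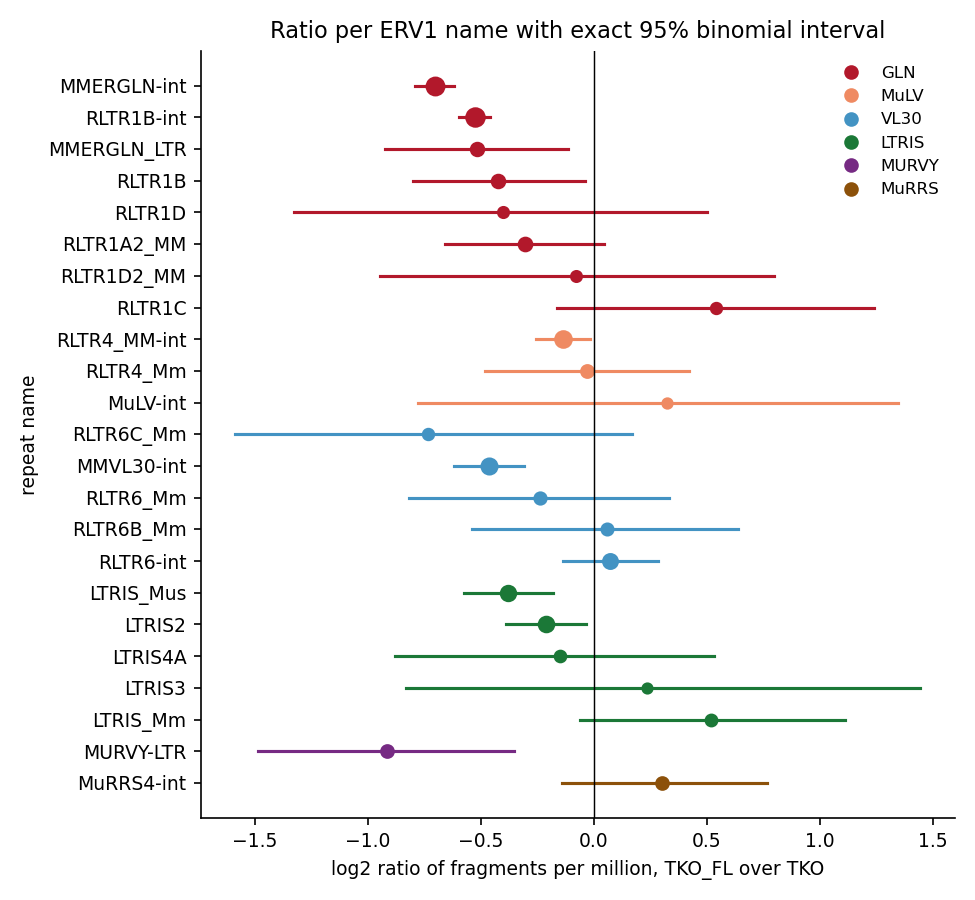
Log2 ratio of FPM, TKO_FL over TKO (x axis), for each name of the 6 groups with at least 20 fragments over both libraries (y axis). Points grow with the fragments in TKO and bars are exact 95% binomial intervals, which cover counting error only. MMERGLN-int at -0.70 and RLTR1B-int at -0.53 have the narrowest bars among names well below 0, and the bars of most LTR names cross 0.

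MuLV names differed little. RLTR4_MM-int, the MuLV internal part, had 1041 fragments in TKO_FL and 1233 in TKO, a log2 ratio of -0.14 (-0.26 to -0.02). Of its copies beside an LTR, 56 of 59 lie beside RLTR4_Mm. RLTR4_Mm, the MuLV LTR, had 81.1 fragments in TKO_FL and 89.05 in TKO, with an interval of -0.48 to 0.42. MuLV-int had 18.4 fragments in TKO_FL and 15.8 in TKO. The group as a whole had a log2 ratio of -0.12 (-0.24 to -0.01), and over features that touch no exon the interval, -0.26 to 0.01, held 0.

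VL30 internal names differed from each other. MMVL30-int, the internal part of VL30, had 567 fragments in TKO_FL and 842 in TKO, a log2 ratio of -0.46 (-0.62 to -0.31). A single feature of 20 copies, MMVL30-int_dup9, held 295 of those fragments in TKO_FL and 431 in TKO. Of 203 MMVL30-int copies within 10 bases of an ERV1 LTR, 66 lie beside RLTR1C, 64 beside RLTR6_Mm and 31 beside RLTR6C_Mm. Of 447 such RLTR6-int copies, 202 lie beside RLTR6B_Mm and 161 beside MURVY-LTR, so the groups by name are mixed by position. RLTR6-int had 371 fragments in TKO_FL and 380 in TKO, with a log2 ratio of 0.07 (-0.14 to 0.28), but on TPM plus 1 its log2 fold was -0.07. Exon-touching features held 57.7% of RLTR6-int fragments over both libraries, against 14.8% of MMVL30-int fragments. The LTR name RLTR6_Mm had 47.7 fragments in TKO_FL and 60.6 in TKO, RLTR6B_Mm 50.5 and 52.2, and RLTR6C_Mm 18.6 and 33.2, all with intervals that hold 0. The VL30 group had a log2 ratio of -0.27 (-0.39 to -0.15), and over features that touch no exon it was -0.33 (-0.47 to -0.19).

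LTRIS names had 959 fragments in TKO_FL and 1215 in TKO, a log2 ratio of -0.23 (-0.36 to -0.11). LTRIS_Mus had 369 fragments in TKO_FL and 516 in TKO, of which 68.0% over both libraries lay in exon-touching features such as that of Adi1, a methionine salvage gene. Over LTRIS features that touch no exon the ratio was -0.11 (-0.28 to 0.05), an interval that holds 0. LTRIS2 had 476 fragments in TKO_FL and 593 in TKO, a log2 fold of -0.28 on TPM plus 1. Over its features with whole fragments only, with 9 fragments in TKO_FL and 6 in TKO, the fold was 1.94. LTRIS_Mm had 59.9 fragments in TKO_FL and 45.0 in TKO. LTRIS4A had 33.2 fragments in TKO_FL and 39.7 in TKO, and LTRIS3 had 15.7 and 14.3.

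MURVY and MuRRS names gave few fragments for their number of copies. The 1681 MURVY features had 61 fragments in TKO_FL and 98.2 in TKO, a log2 ratio of -0.58 (-1.06 to -0.10). A large part came from MURVY-LTR_dup14, with 29 fragments in TKO_FL and 69 in TKO. Without that feature the group's TPM was higher in TKO_FL, with a log2 ratio of 0.58. The 2157 MuRRS features had 96.5 fragments in TKO_FL and 80.9 in TKO, with an interval of -0.07 to 0.81, nearly all of them from MuRRS4-int with 90.5 in TKO_FL and 79.2 in TKO.

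The sum of internal names fell more than the sum of LTR names in these libraries. The 30 internal names had 8022 fragments in TKO_FL and 11642 in TKO, a log2 ratio of -0.43 (-0.47 to -0.39). The 116 LTR names had 6896 fragments in TKO_FL and 7780 in TKO, a log2 ratio of -0.07 (-0.11 to -0.02). The intervals do not overlap, which concerns counting error only. RLTR1B-int and MMERGLN-int hold much of the internal total, as their fragments above show. Their log2 ratios were -0.53 and -0.70, against -0.14 for RLTR4_MM-int, -0.16 for MER34B-int and -0.46 for MMVL30-int, the next most read. LTR names of the GLN group over the minimum of 5 TPM ranged from -0.52 (MMERGLN_LTR) to 0.54 (RLTR1C). How far the names held by each class make the contrast was not tested. Over features that touch no exon, the log2 ratio of TPM was -0.47 for internal names and 0.04 for LTR names. Over the 115 names outside the 6 groups the ratio was -0.05 (-0.10 to -0.004), and over their features that touch no exon it was 0.03 (-0.05 to 0.11).

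Within the GLN group many features were lower in TKO_FL, as the plot of features by group shows. Of features with signal, 88.6% in RLTR1B-int and 94.1% in MMERGLN-int held fractions of shared fragments. How many copies changed therefore cannot be told from the number of features. Features with at least 20 fragments over both libraries numbered 226 in ERV1. Of these, 159 (70.4%) were lower in TKO_FL, against 52.5% of all 14561 repeat features that met the same minimum. At least 2-fold lower were 38 (16.8%, against 8.78% of all) and at least 2-fold higher 7 (3.10%, against 5.98%). The interval lay wholly below 0 for 68 (30.1%, against 12.5%) and wholly above for 11 (4.87%, against 9.97%). The median log2 ratio was -0.34, against -0.03 over all these repeat features, and -0.43 over the 139 that touch no exon. The GLN group, with the RLTR1 names, had 81 features with a median of -0.67, of which 44 were of RLTR1B-int, a mixed name by position. The group held 42 of the 68 features with an interval below 0, 23 of them of RLTR1B-int. Outside the 6 groups 13 of 73 features (17.8%) had such an interval. So did 2 of 27 MuLV, 6 of 18 VL30 and 4 of 24 LTRIS features and the 1 MURVY feature.

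In MMERGLN-int, 25 of 26 features with at least 20 fragments were lower in TKO_FL, 18 with an interval below 0 and 7 at least 2-fold lower. MMERGLN-int_dup17, the most read, joins 18 copies and had 432 fragments in TKO_FL and 680 in TKO, a log2 ratio of -0.55 (-0.72 to -0.37). In RLTR1B-int, 36 of 44 were lower, 23 with an interval below 0 and 15 at least 2-fold lower. The RLTR1B-int features ranged from a log2 ratio of -5.01 to one of 0.66. At the low end, RLTR1B-int_dup31, which joins 12 copies, had 2 fragments in TKO_FL and 69.6 in TKO. RLTR1B-int_dup22, of 16 copies, had 46.3 in TKO_FL and 188 in TKO. Both features were named after their values were seen. In RLTR4_MM-int, 17 of 25 were lower but only 2 had an interval below 0, and in MMVL30-int 5 of 6 were lower, 4 with an interval below 0. MMVL30-int_dup18, also named after its values were seen, had 0.65 fragments in TKO_FL and 19.4 in TKO.

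LTRIS2 features went both ways. Of 14, 6 were lower and 8 higher in TKO_FL, 2 with an interval below 0 and 3 above. LTRIS2_dup19, of 20 copies, had 24.8 fragments in TKO_FL and 1.92 in TKO, the highest ratio among the 226 features at 3.80 (1.75 to 6.87). LTRIS2_dup15 had 4.20 fragments in TKO_FL and 16.4 in TKO. These were named after their values were seen. Features of a name share sequence, and fragments that map to several places were shared out in parts down to 0.2 of a fragment, so neither features nor copies are independent measurements.

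**Figure D3:**
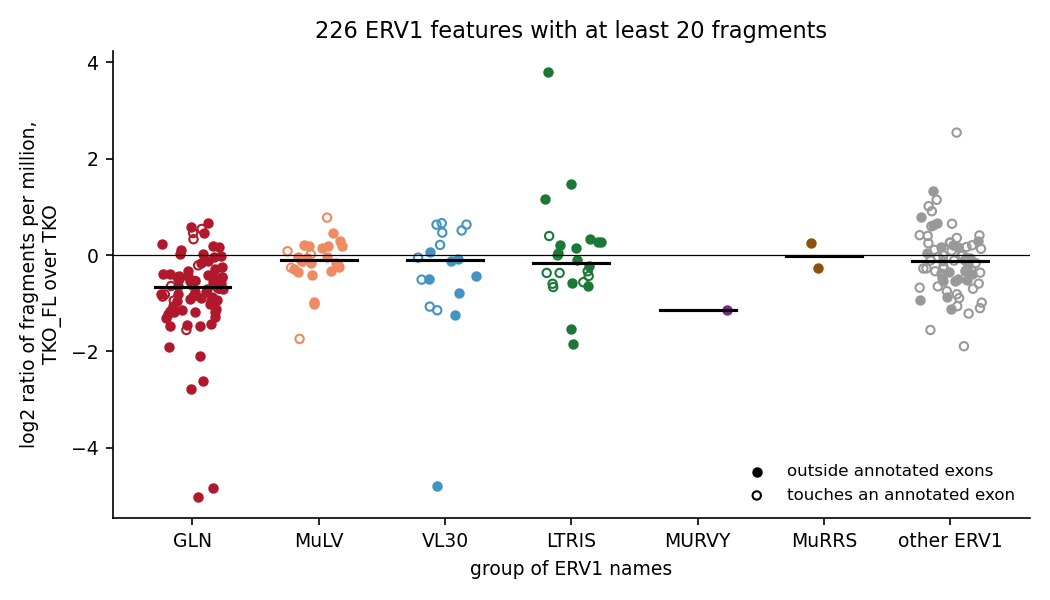
Log2 ratio of FPM, TKO_FL over TKO (y axis), for the 226 ERV1 features with at least 20 fragments over both libraries, by group of names (x axis). Filled points lie outside annotated exons, open points touch one and the bar is the median of the group. Features of GLN with the RLTR1 names centre on -0.67, MuLV on -0.11, VL30 on -0.10 and LTRIS on -0.16.

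Where a feature holds 1 copy its value belongs to 1 genomic position, though it can include fractions of fragments shared with other copies. Such features number 6622 in ERV1, of which 4761 lie on the Y chromosome and 733 on the X chromosome. They had 598 fragments in TKO_FL and 826 in TKO. X-linked copies held 475 of these in TKO_FL and 694 in TKO, while the Y-linked copies had 14.8 in TKO_FL and 7.20 in TKO. The X-linked signal lay mainly in 5 loci, in mm10 coordinates, whose RLTR1B-int body is between 2521 and 2671 bases long and is flanked by a pair of LTRIS2 or LTRIS3 copies. The loci were picked for length and for at least 20 fragments after values were seen.

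Locus 1, chrX:64933117-64938680 on the plus strand, had 182 fragments in TKO_FL and 278 in TKO, a log2 ratio of FPM of -0.50 (-0.78 to -0.23). Locus 2, chrX:114327176-114332725 on the minus strand, had 27.95 in TKO_FL and 92.7 in TKO, a ratio of -1.62 (-2.29 to -1.002). Locus 3, chrX:117316856-117322055 on the minus strand, had 48.6 in TKO_FL and 82.8 in TKO, a ratio of -0.66 (-1.19 to -0.13). Those 3 were lower in TKO_FL with intervals below 0. Locus 4, chrX:123149060-123154190 on the minus strand, had 130 in TKO_FL and 134 in TKO, a ratio of 0.06 (-0.30 to 0.42). Locus 5, chrX:164048342-164053974 on the minus strand, had 60.5 in TKO_FL and 80.8 in TKO, a ratio of -0.31 (-0.81 to 0.20). The interval of locus 2 lies below those of loci 1, 4 and 5. The intervals make no allowance for picking the loci after values were seen, so no difference between loci is drawn from them. These loci share a name and hold fractions of fragments, so fragments may have been shared between them and with other RLTR1B-int copies.

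**Figure D4:**
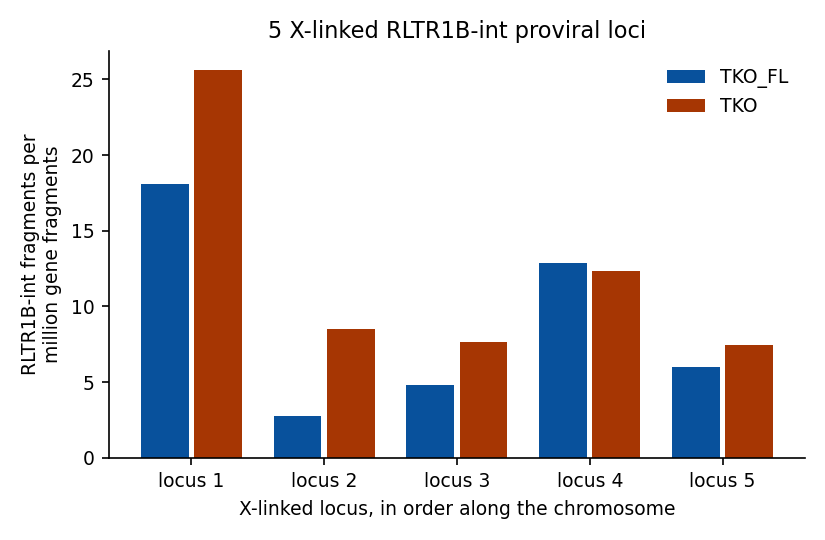
RLTR1B-int FPM (y axis) at the 5 X-linked loci in order along the chromosome (x axis), with TKO_FL at the left and TKO at the right, 1 library each. Locus 2 stands at 2.77 in TKO_FL and 8.53 in TKO, and locus 4 at 12.9 in TKO_FL and 12.4 in TKO.

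Folds per name were also taken on TPM plus 1, over names with at least 5 TPM summed over both libraries. Of the 84 ERV1 names that met this minimum, 5 were at least 2-fold higher in TKO_FL, against 6.21% of all 1046 repeat names, and 6 were at least 2-fold lower, against 6.79%. Those shares, 5.95% and 7.14% of ERV1 names, are near the background. The other 73 lay within 2-fold, 38 of the 84 were above 0 and 46 below, and the median log2 fold was -0.11, against -0.01 over all repeat names. Other LTR families had medians near that of ERV1, at -0.09 for ERVK names, -0.06 for ERVL names and -0.10 for ERVL-MaLR names. Of the 62 names under the minimum, 27 were at 0 in both libraries. None of the GLN, MuLV, VL30, MuRRS and MURVY names reached 2-fold.

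The names past 2-fold rested on few fragments, and 10 of the 11 had under 100 over both libraries. LTR48 was the exception, with 115 fragments in TKO_FL and 54 in TKO and a log2 fold of 1.30. Its fragments lay 88.8% in exon-touching features. LTR48_dup11 touches Ticrr, a replication initiation gene, and had 76 fragments in TKO_FL and 37 in TKO, while Ticrr had 62.9 TPM in TKO_FL and 34.7 TPM in TKO. LTR48_dup23 touches Cds1, a phospholipid synthesis gene, and had 27 fragments in TKO_FL and 5 in TKO, while Cds1 had 17.9 TPM in TKO_FL and 5.88 TPM in TKO. Over LTR48 features that touch no exon, the log2 fold was 1.38 on TPM plus 1, from 11 fragments in TKO_FL and 8 in TKO.

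Among the other names past 2-fold, RMER2 had 37 fragments in TKO_FL and 52 in TKO (log2 fold -1.24 in TPM, -0.31 in FPM), and MER34A had 15 and 29 (-1.18). RLTR30B_MM had 22.2 fragments in TKO_FL and 12 in TKO (1.17), and MER67D had 15 and 7 (1.41). The intervals of all 4 hold 0. MER92-int had 7 fragments in TKO_FL and 13 in TKO, MER57-int 3 and 7, and LTRIS4 2 and 4. LTR37A had 5.40 fragments in TKO_FL and 9.73 in TKO although its TPM was higher in TKO_FL, at 5.72 TPM against 2.20 TPM in TKO. MER66B had 3 fragments in TKO_FL and none in TKO, at the floor of 3 fragments that a count of 0 allows, so no fold is given.

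**Figure D5:**
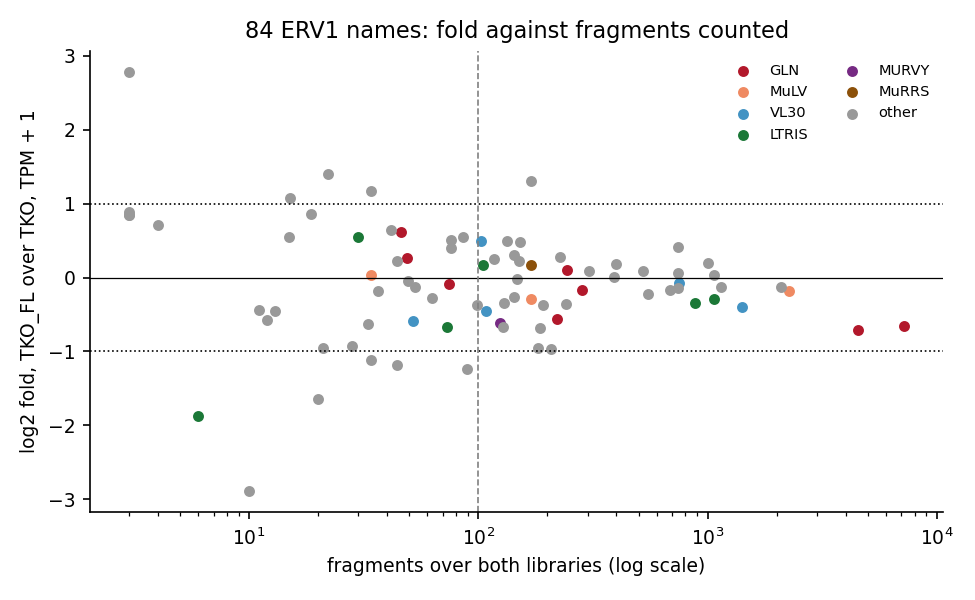
Log2 fold of TPM plus 1, TKO_FL over TKO (y axis), against fragments over both libraries on a log scale (x axis) for the 84 ERV1 names with at least 5 TPM. Dotted lines mark 2-fold and the dashed line 100 fragments. To the right of the dashed line 1 of 45 names, LTR48, passes 2-fold.

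Features taken on TPM plus 1 gave a different split. Of 194 ERV1 features with at least 5 TPM, 31 (15.98%) were at least 2-fold lower in TKO_FL, against 13.3% of all 21269 repeat features that met the minimum. At least 2-fold higher were 16 (8.25%), against 13.4% of all. The median log2 fold was -0.31 over the ERV1 features and 0.04 over all of them. For ERVK features the shares were 25.1% lower and 6.76% higher, and for ERVL features 9.52% lower and 8.10% higher.

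Genes that act on proviruses mostly stayed within 2-fold, as did most genes tested. Of 25 measured genes that silence retroelements, none reached 2-fold, where 3.58% of 13642 genes tested were at least 2-fold higher and 3.06% lower. Their median log2 fold was -0.11, against 0.001 over all genes. Trim28, the corepressor recruited by KRAB zinc finger proteins, had 1178 TPM in TKO_FL and 1568 TPM in TKO. Setdb1, which places histone H3 lysine 9 trimethylation on proviruses, had 64.1 TPM in TKO_FL and 77.5 TPM in TKO. Zfp809, the zinc finger protein that binds the MuLV primer binding site, had 48.7 TPM in TKO_FL and 49.3 TPM in TKO. Ehmt2, a histone H3 lysine 9 methyltransferase also called G9a, had 64.0 TPM in TKO_FL and 108 TPM in TKO, and Zfp932, a KRAB zinc finger gene, had 12.4 TPM in TKO_FL and 24.0 TPM in TKO. Resf1, a retroelement silencing factor, had 80.7 TPM in TKO_FL and 61.2 TPM in TKO.

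Of 7 genes of DNA methylation and its removal, Dnmt1 was higher, with a log2 fold of 4.40, and Dnmt3b was lower. Dnmt3b, a de novo methyltransferase, had 17.6 TPM in TKO_FL and 36.9 TPM in TKO, a log2 fold of -1.03. Dnmt3l, its cofactor, had 330.04 TPM in TKO_FL and 533 TPM in TKO. Uhrf1, which guides DNMT1 to replicated DNA and was counted among the silencers, had 299 TPM in TKO_FL and 345 TPM in TKO. Gene totals add all exons and cannot check a deletion of a few of them.

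Restriction factors, which block retroviruses after entry or at release, had a median log2 fold of 0.23 over the 6 tested, against 0.001 over all genes. None reached 2-fold, where 3.58% of all 13642 genes tested were at least 2-fold higher and 3.06% lower. Apobec3, a cytidine deaminase packaged into virions, had 129 TPM in TKO_FL and 129 TPM in TKO. Bst2, which tethers budding virions, had 324 TPM in TKO_FL and 232 TPM in TKO, and Zc3hav1, which binds CpG-rich viral RNA, had 13.7 TPM in TKO_FL and 8.71 TPM in TKO. Fv1, a capsid-binding factor itself derived from a retroviral gag gene, had 1.12 TPM in TKO_FL and 1.64 TPM in TKO. Among receptors of murine leukaemia viruses, Slc7a1, used by ecotropic viruses, had 28.3 TPM in TKO_FL and 31.6 TPM in TKO. Xpr1, used by xenotropic and polytropic viruses, had 5.93 TPM in TKO_FL and 5.10 TPM in TKO. Slc20a1 had 96.0 TPM in TKO_FL and 160 TPM in TKO, and none of the 4 receptors tested reached 2-fold. Among so few restriction factors and receptors, no call at 2-fold is near the shares over all genes.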

How the data were processed

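Poly(A)-enriched RNA from 1 TKO_FL and 1 TKO library, 2 of the 11 samples of the series, was used. Trim Galore, HISAT2, SAMtools, Subread, featureCounts and mm10 are named in the submitters' processing notes, with no order. The authors deposited signal values, named TPM, per gene and per repeat feature. Gene columns added up to 10 times what TPM should, so deposited signal was divided by 10 in both tables. The deposited gene counts, made with featureCounts 2.0.6 per the file headers, summed to 19573689 reads in TKO_FL and 21133660 in TKO, and served for an alternative scaling. The sources used here do not give how repeats were annotated and counted. In each table, 11 further columns could not be matched to samples of the series and were left out.

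Fragments were recovered as signal times length divided by the value of 1 fragment. Shared fragments were kept as fractions and rounded for the intervals. Values were summed per repeat name and group. Log2 folds used a pseudocount of 1 TPM, a minimum sum of 5 TPM and a threshold of 2-fold, and genes needed 1 TPM in either library. Log2 ratios of fragments used no pseudocount and were scaled by gene fragments. Groups were set by parts of the names, and RLTR1 names were put with GLN. Features of at least 20 fragments were compared singly. Exons came from the deposited gene annotation. Promoter sequences are from RefSeq GRCm38.p6, whose gene spans overlap those of the deposited table for 99.7% of 24984 matched genes. Named were all names of the 6 groups over the minimum, the 5 highest and 5 lowest folds, up to 3 features each, and list genes. Others are stated as chosen after their values were seen. The members, groups and gene lists were chosen with earlier results of these data known. Python 3.11.15, numpy 2.4.6, pandas 2.3.3, scipy 1.17.1, R 4.3.3 and edgeR 4.0.16 were used, and the steps were tested on simulated data. With 1 library per genotype, no test across libraries was made.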

Additional observations from a re-analysis of the deposited data

How the results depend on the processing

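No paired analysis was possible because each genotype had 1 library. The alternatives changed the counting scale, the pseudocount, the minimum and the features used. Features outside exons, the minimum of 100 fragments, GLN names alone and LTRIS with RLTR1B-int were chosen after seeing the data. ERV1 names at least 2-fold higher numbered 5 in the values reported, 9 with a pseudocount of 0.1, 2 with a pseudocount of 5, 9 with a minimum of 1 TPM, 9 with no minimum, and 1 with a minimum of 20 TPM, in FPM or with a minimum of 100 fragments. Names lower numbered 6 as reported, 8 with a pseudocount of 0.1, 9 with a minimum of 1 TPM, 9 with no minimum, 2 with a pseudocount of 5, 1 with a minimum of 20 TPM, 0 in FPM, 0 with a minimum of 100 fragments and 10 over features with whole fragments only. Features at least 2-fold lower numbered 31 as reported and 17 with a pseudocount of 5. With a minimum of 1 TPM, 95 features were higher and 107 lower, and with 20 TPM 2 were higher and 8 lower.

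The summed ERV1 level had a log2 ratio of -0.18 in TPM. It was -0.27 in FPM, -0.22 without the most abundant feature, -0.10 over features with whole fragments only and -0.27 over features outside exons. GLN, at -0.61 in TPM, gave -0.95 over whole-fragment features and -0.70 for the GLN names alone. VL30, at -0.17, gave -1.19 over whole-fragment features, which held 25 fragments in TKO_FL and 52 in TKO. MURVY, at -0.45, gave 0.58 without its most abundant feature, and LTRIS, at -0.33, gave -0.60 with RLTR1B-int. Internal names, at -0.43, gave -0.35 over whole-fragment features. LTR names, at -0.03, gave 0.040 outside exons, and the other names, at -0.05, gave 0.022 outside exons. Of the genes that act on proviruses, 1 was lower as reported and 0 with a pseudocount of 5. The cause of these changes was not tested. Of the values recomputed for single names, 288 moved by less than their counting interval and 9 by more. These were MER66B with a pseudocount of 5, at the floor of 3 fragments, and RLTR1B-int (-0.52), RLTR1B (-0.39) and RMER2 (-0.31) in FPM, RLTR1D without its most abundant feature (-1.01), and RLTR1B-int (-2.90), LTRIS2 (1.94), LTRIS4A (-1.60) and RLTR1D2_MM (-2.58) over whole-fragment features.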

Other observations

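Some features outside the 6 groups were named after their values were seen. RMER5_dup189, which touches Pigl, a gene of GPI-anchor synthesis, had 61 fragments in TKO_FL and 35 in TKO, a log2 ratio of 0.91 (0.29 to 1.55). RMER5_dup236, which touches the zinc finger gene Zfp874b, had 6 fragments in TKO_FL and 19 in TKO, a ratio of -1.56 (-3.17 to -0.18). MER34_dup23, of 18 copies outside annotated exons, had 29 fragments in TKO_FL and 12.5 in TKO, a ratio of 1.32 (0.28 to 2.33). MLTR73_dup29, which touches Mreg, a gene of melanosome transport, had 4 fragments in TKO_FL and 16 in TKO. None of these has a replicate check.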
